A study of Mus musculus with 24 samples.

Results

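The genes described here are the 10 members of 3 families of cell surface adhesion proteins: the teneurins Tenm1, Tenm2, Tenm3 and Tenm4, the latrophilins Adgrl1, Adgrl2 and Adgrl3, and the fibronectin leucine-rich transmembrane proteins Flrt1, Flrt2 and Flrt3. Their accessible chromatin regions were taken from 8 deposited ATAC-seq peak lists of mouse skin. Merging all peaks gave 63188 regions, each region was given to its nearest protein-coding gene within 50 kb, and 155 regions belonged to the 10 genes. The genes were chosen by family and on the number of regions in these same lists, since Tenm3 and Adgrl3 carry many regions in the follicle list. How many regions each gene has on the hair follicle side is therefore a description and was not tested.

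Teneurins are large transmembrane proteins that bind latrophilins on a neighbouring cell. Latrophilins are adhesion G protein-coupled receptors that bind teneurins, Flrt proteins and neurexins, and Flrt proteins also bind Unc5 receptors and interact with Robo1 and Fgfr1. The families are best known for cell guidance and synapse formation in the nervous system. In the skin, the hair follicle bulge holds stem cells that rebuild the follicle in each hair cycle, and stem cells of the basal epidermis renew the surface. After a shallow wound, cells of the follicle can move into the epidermis.

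ATAC-seq uses a transposase that cuts open DNA, and a peak marks a stretch where cuts pile up. The 24 samples were sorted skin cells of a CD1 x C57BL/6J mouse cross, and 1 peak list per group was analysed. Unwounded Krt19-CreER/R26-YFP mice gave 4 samples of hair follicle stem cells at day 0. They also gave epidermal stem cells, in 4 samples at day 0 and 3 at day 80. Krt19-CreER/R26-YFP mice with a partial-thickness wound gave cells labelled as progeny of the hair follicle, in 3 samples at day 3, 2 at day 7 and 3 at day 80. Sox9-CreER/R26-YFP mice with a full-thickness wound gave cells labelled as progeny of the epidermis, in 3 samples at day 7 and 2 at day 80. Values for all 8 lists are given below in 1 standing order: hair follicle, epidermis at days 0 and 80, partial-thickness wound at days 3, 7 and 80, and full-thickness wound at days 7 and 80. CreER is a recombinase that acts after tamoxifen and switches on the YFP reporter in cells that express the driver gene and in their descendants. Krt19 and Sox9 are both expressed in hair follicle stem cells, and how the cells of the full-thickness wound were assigned to the epidermis could not be learned from the labels. Between the wound groups the driver, the labelled origin of the cells and the type of wound differ together, so they cannot be told apart.

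The lists held 29365 to 37214 peaks. Their lowest −log10 p ran from 7.86 (epidermis, day 80) to 40.2 (partial-thickness wound, day 7), so a weak peak could be listed in 1 group and missing in another. The peak names of the day 0 epidermis list carry a control tag for day 7, although the labels give no unwounded day 7 group. Hair follicle stem cell markers (Lgr5, Cd34, Lhx2, Sox9 and 5 others, 9 of 9 with a region) had 57 regions in the follicle list and 28 to 52 in the others, with 32 at day 0 in the epidermis. The epidermal genes Gata3, Klf5 and Bmp4 had 4 regions in the follicle list and 14 in the day 0 epidermis list. Basal epidermis markers (Krt5, Krt14, Trp63, Itga6, Itgb4 and Col17a1) went the other way, with 25 regions in the follicle list and 11 in the day 0 epidermis list, the lowest count of all 8 lists, and 17 were on the hair follicle side against 3 on the epidermal side. With 1 list per group there is no spread between replicates, so no test between groups was made. Exact 95% Clopper-Pearson intervals are given for shares, and they cover counting error only. Cells of a sample share their source, regions of a gene are neighbours on 1 chromosome, and a smaller share of a cell type and a less open region in each cell cannot be told apart in a sorted population.

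Of the 10 genes, 9 had at least 1 region. Tenm4 had 47 regions, Tenm2 had 33, Adgrl3 had 24, Tenm3 had 21 and Adgrl2 had 15. The Flrt genes, which are short, had 5 (Flrt1), 7 (Flrt2) and 2 (Flrt3). Adgrl1 had 1 region and Tenm1 had 0. Counts followed gene length only in part. Tenm1 on chromosome X spans 901.3 kb without a region in any list, whereas Tenm4 on chromosome 7 spans 739.9 kb and carried 5.54 regions per 100 kb. Tenm3 spans 1297.2 kb on chromosome 8 with 1.54 regions per 100 kb, Tenm2 spans 1230.4 kb on chromosome 11 with 2.6, Adgrl3 spans 808.7 kb on chromosome 5 with 2.84 and Adgrl2 spans 173.5 kb on chromosome 3 with 6.92.

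**Figure D1:**
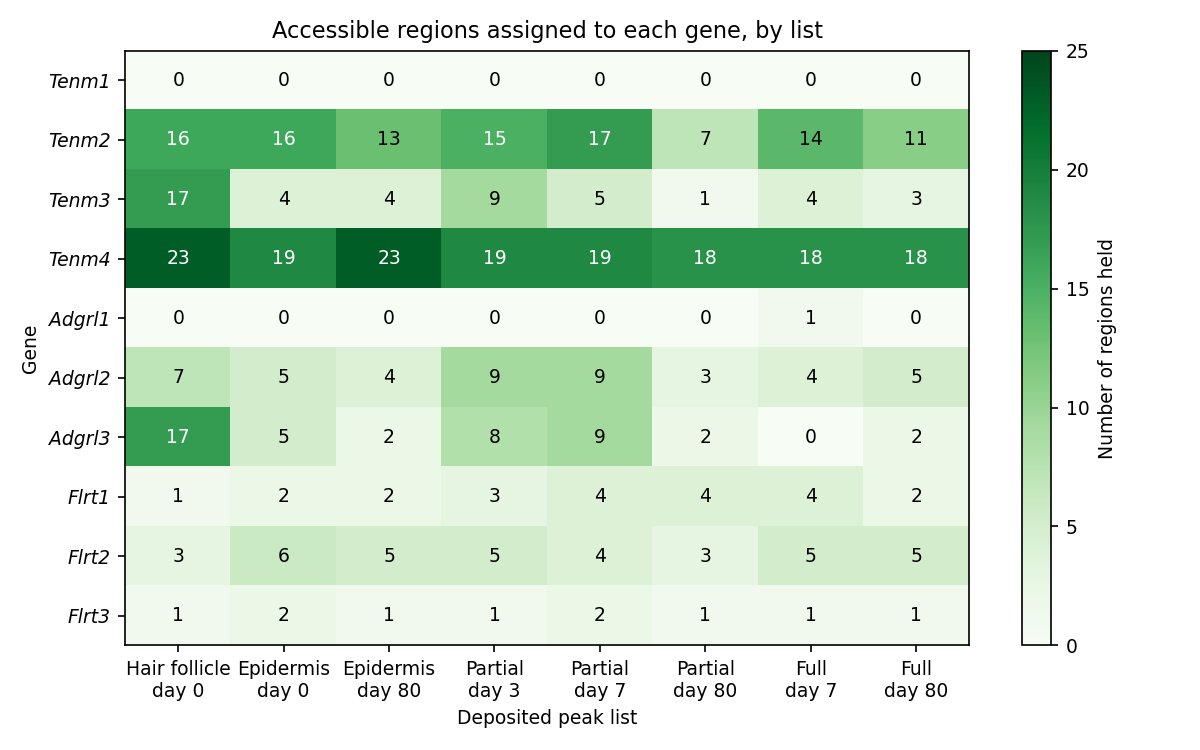
Number of accessible regions held by each of the 8 peak lists (columns) for each of the 10 genes (rows), with the count printed in the cell and shown by colour. Tenm3 and Adgrl3 each have 17 regions in the follicle list and at most 9 in any other list, while the counts of Tenm4 stay between 18 and 23.

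Few of these regions lay near a gene end. Only 7 of the 155 (4.52%) lay within 1 kb of a gene end, 5′ or 3′, against 22.7% of all regions assigned to a gene. Inside the gene, or overlapping one of its ends, lay 142 (91.6%), against 69.2%. Start sites further inside a gene, such as a second listed start of Tenm4, are not counted by this distance. The RefSeq table of start sites on GRCm38.p6, the assembly of mm10, matched 9 of the 10 members with 12 start windows of 300 bases each. Of these windows, 7 were held by at least 1 list and 5 by no list, among them the listed windows of Tenm1, Tenm2, Tenm3 and Adgrl2. Across 21262 windows of protein-coding genes, 35.4% were held by all 8 lists and 46.9% by none.

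The 250 bases before a start site are printed here for 4 members, 2 held by all 8 lists and 2 by some lists only, to show how they differ in base composition. CG dinucleotides, which cluster in CpG island promoters, are in capitals. The sequences are RefSeq GRCm38.p6, 5′ to 3′ on the strand of the gene. Adgrl3 is chr5:81020321-81020570 on the plus strand, inside the annotated gene and before the first of its listed start sites. Flrt3 is chr2:140671477-140671726 on the minus strand, Tenm4 is chr7:96170994-96171243 on the plus strand, and Adgrl1 is chr8:83899848-83900097 on the plus strand.
Adgrl3: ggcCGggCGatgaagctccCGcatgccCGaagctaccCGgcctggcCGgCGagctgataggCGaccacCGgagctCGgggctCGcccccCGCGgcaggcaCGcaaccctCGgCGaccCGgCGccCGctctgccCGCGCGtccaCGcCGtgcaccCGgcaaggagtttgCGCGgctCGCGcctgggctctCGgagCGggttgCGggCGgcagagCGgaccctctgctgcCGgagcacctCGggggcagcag
Flrt3: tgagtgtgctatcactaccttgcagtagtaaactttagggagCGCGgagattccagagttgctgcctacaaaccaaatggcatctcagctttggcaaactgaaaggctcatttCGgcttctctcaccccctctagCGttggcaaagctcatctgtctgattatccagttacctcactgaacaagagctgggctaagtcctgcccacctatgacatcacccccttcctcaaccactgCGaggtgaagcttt
Tenm4: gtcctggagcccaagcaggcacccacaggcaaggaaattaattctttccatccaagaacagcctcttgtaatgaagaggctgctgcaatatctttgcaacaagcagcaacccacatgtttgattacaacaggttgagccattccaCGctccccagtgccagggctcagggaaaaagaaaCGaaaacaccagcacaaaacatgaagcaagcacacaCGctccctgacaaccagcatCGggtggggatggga
Adgrl1: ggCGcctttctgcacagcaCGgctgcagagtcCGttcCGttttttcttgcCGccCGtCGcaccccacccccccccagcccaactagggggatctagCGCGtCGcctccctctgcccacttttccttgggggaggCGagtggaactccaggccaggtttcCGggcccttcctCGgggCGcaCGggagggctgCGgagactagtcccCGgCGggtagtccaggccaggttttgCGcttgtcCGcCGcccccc

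The Adgrl3 window was held by the follicle list and the day 3 and day 7 partial-thickness lists and by no other. This combination was found in 37 of the 21262 windows (0.174%). The region behind it, chr5:81019258-81020613, had a score of 433 in the follicle list, 522 at day 3 and 444 at day 7. The score is the authors' own value for a peak, which the peak caller derives from its −log10 q, and it ranks peaks only within a list. The 250 bases before this Adgrl3 start hold 36 CG dinucleotides, against a median of 18 in windows held by all 8 lists and 3 in windows held by none.

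Flrt3 and Tenm4 showed the opposite combination of composition and presence. The printed windows hold 5 and 4 CG dinucleotides and were in all 8 lists. A second listed Tenm4 start window, chr7:96211421-96211720, with 8 CG dinucleotides, was held by the day 80 partial-thickness and day 7 full-thickness lists only. The wider region around this window, chr7:96209775-96213741, was in all 8 lists, and the peaks of the remaining lists lay beside the window. The Flrt3 region, chr2:140669668-140671716, was among the strongest peaks of most lists. Its scores in the standing order were 2095, 1942, 728, 1544, 1887, 1138, 765 and 683. These scores stood at percentiles 90.9 to 99.4 of their lists, except in the day 7 full-thickness list, where the percentile was 67.8. The Tenm4 region, chr7:96170762-96172152, had scores of 679, 748, 355, 1882, 1826, 1343, 1372 and 327 in the standing order.

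Adgrl1, which lies at chr8:83900098-83941954, had its single region at its start. That region, chr8:83899449-83901260, was in the day 7 full-thickness list alone, with a score of 504 at percentile 39.3. Of all start windows, 1.23% were in this list alone. The Adgrl1 window holds 21 CG dinucleotides. Flrt1, whose start was not matched, also had a region within 1 kb of a gene end in the day 7 full-thickness list alone, chr19:7164869-7166427. Its score of 302 stood at percentile 0.841, among the weakest peaks of that list. The Flrt2 start lay in chr12:95691986-95692600, with scores of 168 in the follicle list, 219 in the day 0 epidermis list and 65 in the day 80 epidermis list. No wound list held this Flrt2 region, but a second one inside the gene, chr12:95693272-95696116, was in 7 lists. The Adgrl2 gene end was covered by chr3:148987296-148990768 in every list but that of the day 7 full-thickness wound.

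Promoter letters were searched on both strands for 7 motifs: TGANTCA for AP-1, ACAANG for Sox factors, TCAAAG for Tcf and Lef factors, AGATAA for the Gata family, TGTGGT for Runx factors, TATAAA for the promoter box of that sequence, and the nuclear factor I palindrome. None was found in the windows of the 4 printed promoters. The Flrt2 window held ACAANG and TGTGGT, the Adgrl2 and Tenm1 windows held ACAANG and TATAAA, and the Tenm2 window held AGATAA. Of the other Adgrl3 windows, chr5:81020502-81020801, which only the day 3 and day 7 partial-thickness lists held, had TATAAA, and chr5:81021343-81021642, which no list held, had TGTGGT. Across all windows ACAANG was in 33.7%, TGTGGT in 12.4%, TATAAA in 11.6% and AGATAA in 8.81%, and the remaining motifs were in 12.7% (TCAAAG), 6.13% (TGANTCA) and 0.0329% (nuclear factor I).

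The follicle list held 85 of the 155 regions (54.8%, interval 46.7 to 62.8), against 45.9% of all 63188 regions. It was the 1 list in which the share of these genes lay above that of all regions. Tenm3 and Adgrl3, chosen for their many regions in this list, gave 34 of the 85, from 45 regions. Without Tenm3 and Adgrl3 the follicle list held 51 of 110, close to the share of all regions. The epidermis lists held 59 (38.1%) at day 0 and 54 (34.8%) at day 80, against 47.8% and 49.8%. The lists of the partial-thickness wound held 69 (44.5%) at day 3, 69 (44.5%) at day 7 and 39 (25.2%) at day 80, against 56.6%, 55.0% and 51.9%. Those of the full-thickness wound held 51 (32.9%) at day 7 and 47 (30.3%) at day 80, against 58.0% and 51.1%. The lowest share was that of the day 80 partial-thickness list, at 25.2% (interval 18.5 to 32.8).

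Regions on the hair follicle side, in the follicle list and not in the day 0 epidermis list, numbered 58 of 155 (37.4%, interval 29.8 to 45.5), against 17.2% of all regions. Among regions inside a gene and over 1 kb from its ends the share was 40.0% for these genes and 18.1% for all. The 58 came from 5 genes: Tenm3 with 15, Adgrl3 with 15, Tenm4 with 14, Tenm2 with 9 and Adgrl2 with 5. No Flrt region was on the hair follicle side, and without Tenm3 and Adgrl3 the share was 28 of 110 (25.5%). Regions on the epidermal side, in the day 0 epidermis list and not in the follicle list, numbered 32 (20.6%), against 19.1% of all regions. They came from Tenm4 (10), Tenm2 (9), Adgrl3 (3), Adgrl2 (3), Flrt2 (3), Tenm3 (2), Flrt1 (1) and Flrt3 (1).

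As families, the latrophilins had 20 of 40 regions on the hair follicle side and 6 on the epidermal side. Adgrl3, chosen for its many regions in the follicle list, gave 15 of these 20, and Adgrl2 gave 5, from 15 regions. The teneurins had 38 of 101 on the hair follicle side and 21 on the epidermal side, and the Flrt genes had 0 and 5 of 14. Tenm3, chosen in the same way as Adgrl3, gave 15 of the 38. The shares of all regions were 17.2% on the hair follicle side and 19.1% on the epidermal side. Differences between families were not tested. Regions in the follicle list alone numbered 35 (22.6%), against 8.91% of all regions. Tenm3 and Adgrl3 gave 19 of the 35, from 45 regions, and the other genes gave 16, from 110. Regions in all 8 lists numbered 15 (9.68%), against 22.0%, and 12 of them were teneurin regions. A region held by 1 list alone, of any group, was seen 58 times (37.4%), against 26.6% of all.

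Other cell types could contribute to a sorted population, and their marker regions moved in part with the follicle list. Fibroblast markers had 8 regions in the follicle list and 2 to 4 in the others. Col1a2 and Twist2 had regions in the follicle list alone, Lum had 0, and 4 of 5 fibroblast markers had a region. Melanocyte markers had 14 regions in the follicle list and 8 to 12 in the others, 11 of the 14 from Mitf, with Tyr at 0. Schwann and neural markers had 6 regions in the follicle list against 4 to 10, with Elavl3 and Elavl4 at 0 and no region of S100b in the follicle list. Endothelial markers had 7 against 5 to 14 with Kdr at 0, muscle markers had 2 against 3 to 4, and immune markers had 0 against 1 to 3. The part of these markers in the counts of the adhesion genes was not tested.

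Tenm3, the teneurin with the highest share on the hair follicle side, lies at chr8:48225665-49522824 on the minus strand. In the standing order its region counts were 17, 4, 4, 9, 5, 1, 4 and 3. The follicle list was highest, the day 3 list was next, and the day 80 partial-thickness list was lowest. Of 413 genes with at least 15 regions, Tenm3 had the second highest share on the hair follicle side (71.4%) and Adgrl3 the fifth (62.5%), against a median of 18.8%. Tenm4 (29.8%), Adgrl2 (33.3%) and Tenm2 (27.3%) were at ranks 83, 56 and 100.

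The hair follicle side regions of Tenm3 lay toward the 5′ end of the annotated span. Of the 15, 12 had their midpoint in the first 50% of the span, and the median of the 15 was 25.9% of the way from the 5′ end. The listed Tenm3 start window, chr8:48674641-48674940, lies further into the span, so these 12 regions are upstream of that start. The 4 regions of the day 0 epidermis list lay at 70.4% of the span or beyond, and those of the day 80 list at 70.4% to 94.2%. The strongest region was chr8:49186633-49188289, with a score of 2658 in the follicle list (percentile 99.8), 565 at day 3 and 579 at day 7 of the partial-thickness wound, and no peak in the other 5 lists. A neighbour further into the gene, chr8:49158111-49159769, had a score of 1584 in the follicle list and no peak elsewhere. Between them, chr8:49174907-49176034, had scores of 350, 706 and 723 in the follicle list and at days 3 and 7 of the partial-thickness wound.

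In all, 10 Tenm3 regions were in the follicle list alone, with scores of 163 to 1584, and 9 of them were in the 5′ part. A further pair in the 5′ part, chr8:49251726-49252281 and chr8:49282190-49283042, was absent from every unwounded list and present at day 3, with scores of 642 and 927. Further into the gene, at 74.6% to 75.1% of the way from the 5′ end, the pattern differed. The region chr8:48548539-48549330 was absent from the follicle list, with scores of 331 and 180 in the epidermis lists, 1399 and 1490 at days 3 and 7 of the partial-thickness wound, and 1240 and 219 in the full-thickness lists. The 1 Tenm3 region in all 8 lists, chr8:48554123-48556175, is its next neighbour and had scores of 814, 308, 226, 537, 605, 190, 387 and 102 in the standing order.

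**Figure D2:**
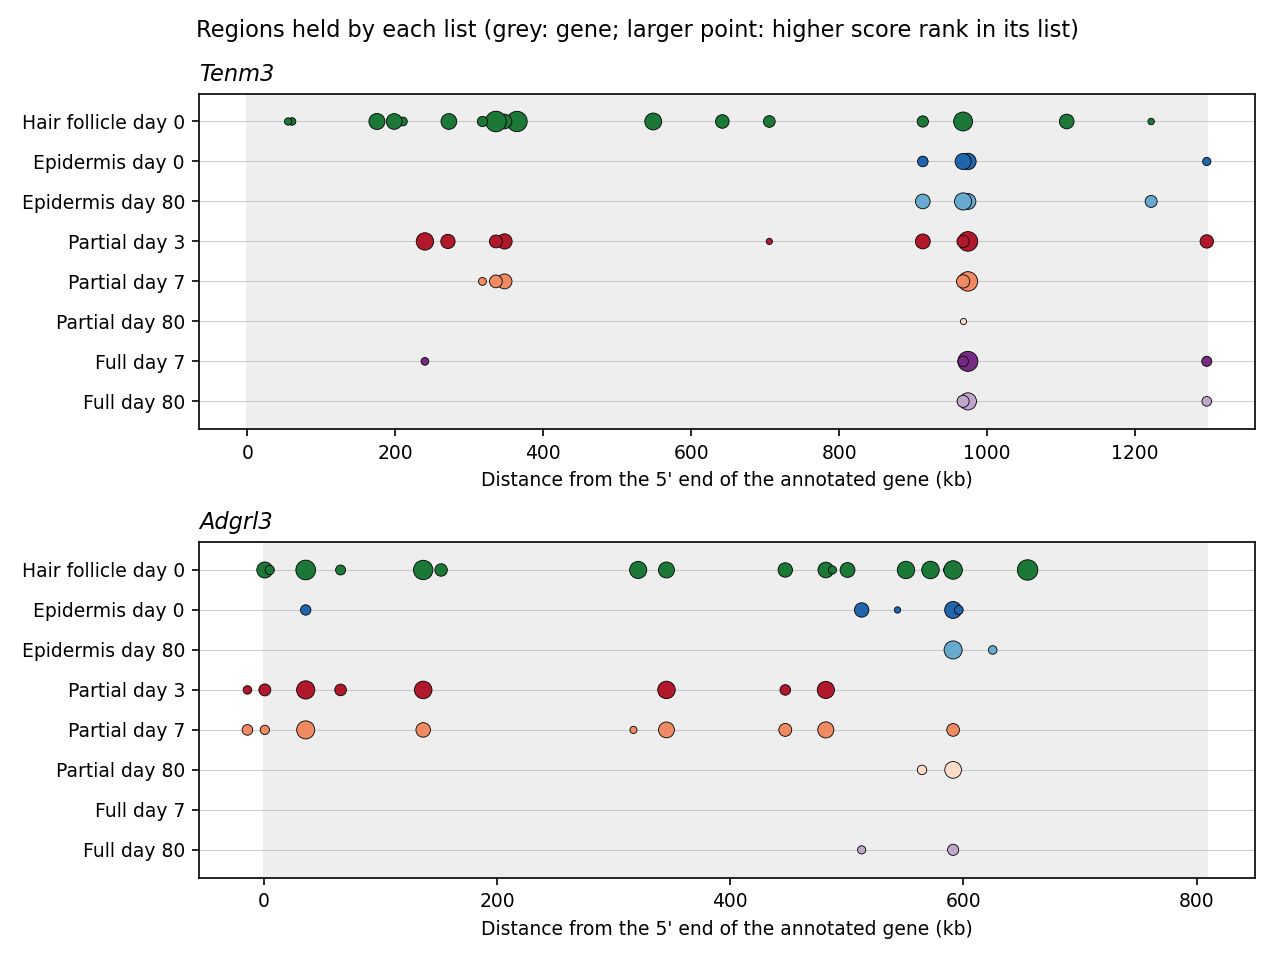
Positions of accessible regions along Tenm3 and Adgrl3, with distance from the 5′ end of the annotated gene (kb) on the horizontal axis and 1 row per peak list; each mark is a region held by that list and the grey band is the gene. In Tenm3 the first 50% of the gene holds 12 marks of the follicle list and none of either epidermis list, and in Adgrl3 the marks of the follicle list run from the start to 81.0% of the span.

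Adgrl3, a latrophilin, lies at chr5:81019085-81827825 on the plus strand. In the standing order its region counts were 17, 5, 2, 8, 9, 2, 0 and 2. The follicle list was highest, both early partial-thickness lists followed, and the day 7 full-thickness list held no Adgrl3 region although it was the longest list. The 15 hair follicle side regions were spread along the gene, 7 in the first 50% of the span and 8 in the rest. The strongest, chr5:81673656-81674546, had a score of 1766 in the follicle list (percentile 98.1) and no peak in the other lists. In all, 9 Adgrl3 regions were in the follicle list alone, with scores of 171 to 1766.

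Adgrl3 had 5 regions held by the hair follicle, day 3 and day 7 lists and no other. They were the start region, chr5:81155311-81156906 (scores 962, 956 and 691), chr5:81363883-81364670 (425, 944 and 801), chr5:81465694-81466593 (334, 474 and 585) and chr5:81500985-81501687 (406, 901 and 828). Across the 10 genes, 9 regions had this combination (5.81%), against 669 of all regions (1.06%). The other 4 were 2 of Tenm3 and 1 each of Tenm2 and Adgrl2. Tenm3 and Adgrl3 were chosen for their many regions in the follicle list, which this combination requires, so the share is a description and was not tested. The genes other than these had 110 regions. Another Adgrl3 region, chr5:81054255-81055695, was strong in the same 3 lists (1054, 1050 and 1107). The day 0 epidermis list also held it, as a weak peak with a score of 152 (percentile 18.7). The 3 epidermal side regions of Adgrl3 were weak, with scores of 112 to 241 in the day 0 epidermis list, and 2 of them were in no other list.

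Adgrl2, the latrophilin at chr3:148815586-148989096 on the minus strand, had 7, 5, 4, 9, 9, 3, 4 and 5 regions in the standing order. Its highest counts were in the day 3 and day 7 partial-thickness lists. The strongest hair follicle region absent from both epidermis lists was chr3:148915658-148916621, with a score of 566 in the follicle list (percentile 69.1) and 411 at day 7. The regions of the epidermis lists lay in the first 50% of the span, at 0.0369% to 47.4% of it at day 0, while 3 of the 5 hair follicle side regions lay further 3′. The region chr3:148792022-148793406, which lies 22180 bp beyond the 3′ end, had scores of 274, 1004 and 942 in the follicle list and at days 3 and 7 of the partial-thickness wound, and no peak elsewhere.

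**Figure D3:**
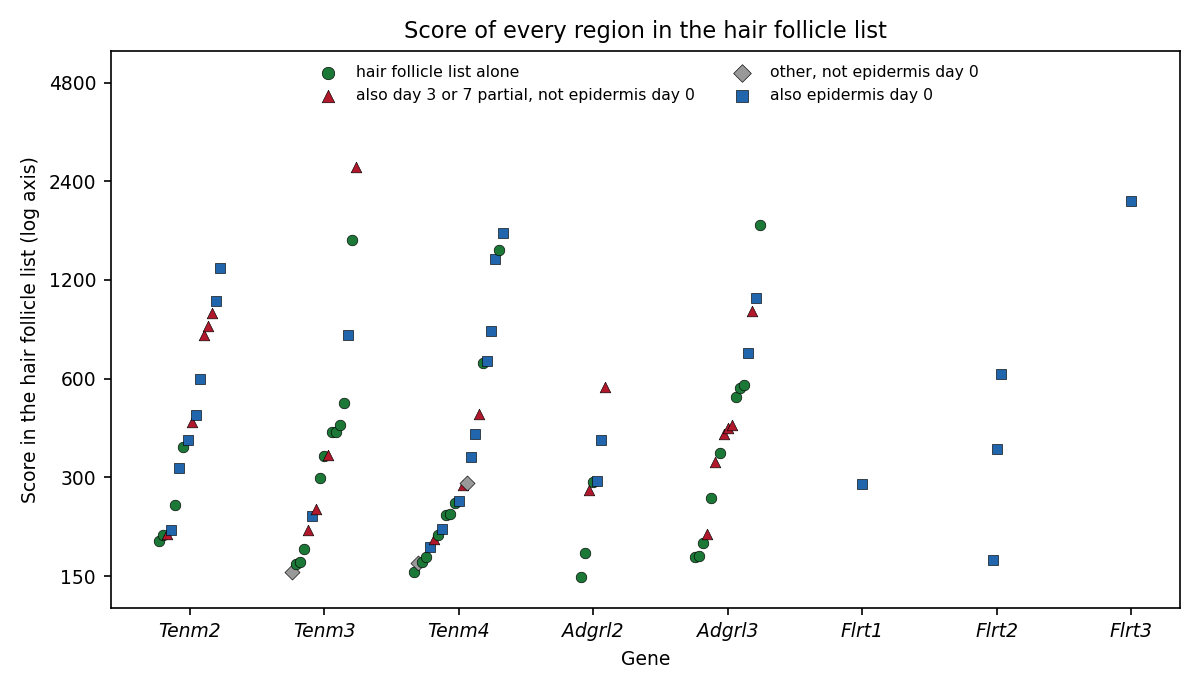
Score in the follicle list (log axis) of every region that list holds, for each of the 8 genes with such a region; colour and shape show which other lists hold the region. The strongest regions of Tenm3 (2658) and Adgrl3 (1766) are absent from the day 0 epidermis list, and the single region of Flrt3 (2095) is shared with it.

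Within the follicle list, the 58 hair follicle side regions had a median score at percentile 36.7, against 32.5 for all 10897 regions of this kind. Of the 58, 9 (15.5%) were among the highest 25% of the list by score, against 10.4% of all. The 20 that were also in a day 3 or day 7 partial-thickness list had a higher median score, 415.5, against 280 for all such regions. The other 38 had a median score of 248.5, against 261. For Tenm3 and Adgrl3 alone the same medians were closer, 378 (10 regions) and 352 (20 regions). The difference was not tested. The weakest members of the class were regions of Adgrl2 (score 149), Tenm3 (154) and Tenm4 (154), at or just above the lowest score in the list, 149 for all regions of this kind.

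Tenm2 and Tenm4 had nearly balanced counts between the hair follicle and the epidermis, but in different regions. Tenm2, at chr11:36006656-37237053 on the minus strand, had 16, 16, 13, 15, 17, 7, 14 and 11 regions in the standing order. Its hair follicle and day 0 epidermal counts were equal, yet only 7 regions were in both, and 9 were on each side. All 16 hair follicle regions lay in the last 50% of the span, from 60.8% of it onward. Of the 7 regions nearer to the 5′ end than these, 5 were in the day 0 epidermis list, 2 in the day 80 epidermis list, 2 in the day 80 full-thickness list, and 1 each in the day 7 and day 80 partial-thickness lists. This split was chosen after the values were seen. The farthest 5′ of them, chr11:36887432-36888784, had scores of 437 and 214 in the day 0 and day 80 epidermis lists and no peak in the other lists. The strongest Tenm2 region absent from both epidermis lists was chr11:36488378-36489146, with scores of 953 in the follicle list (percentile 87.7) and 656 at day 3.

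**Figure D4:**
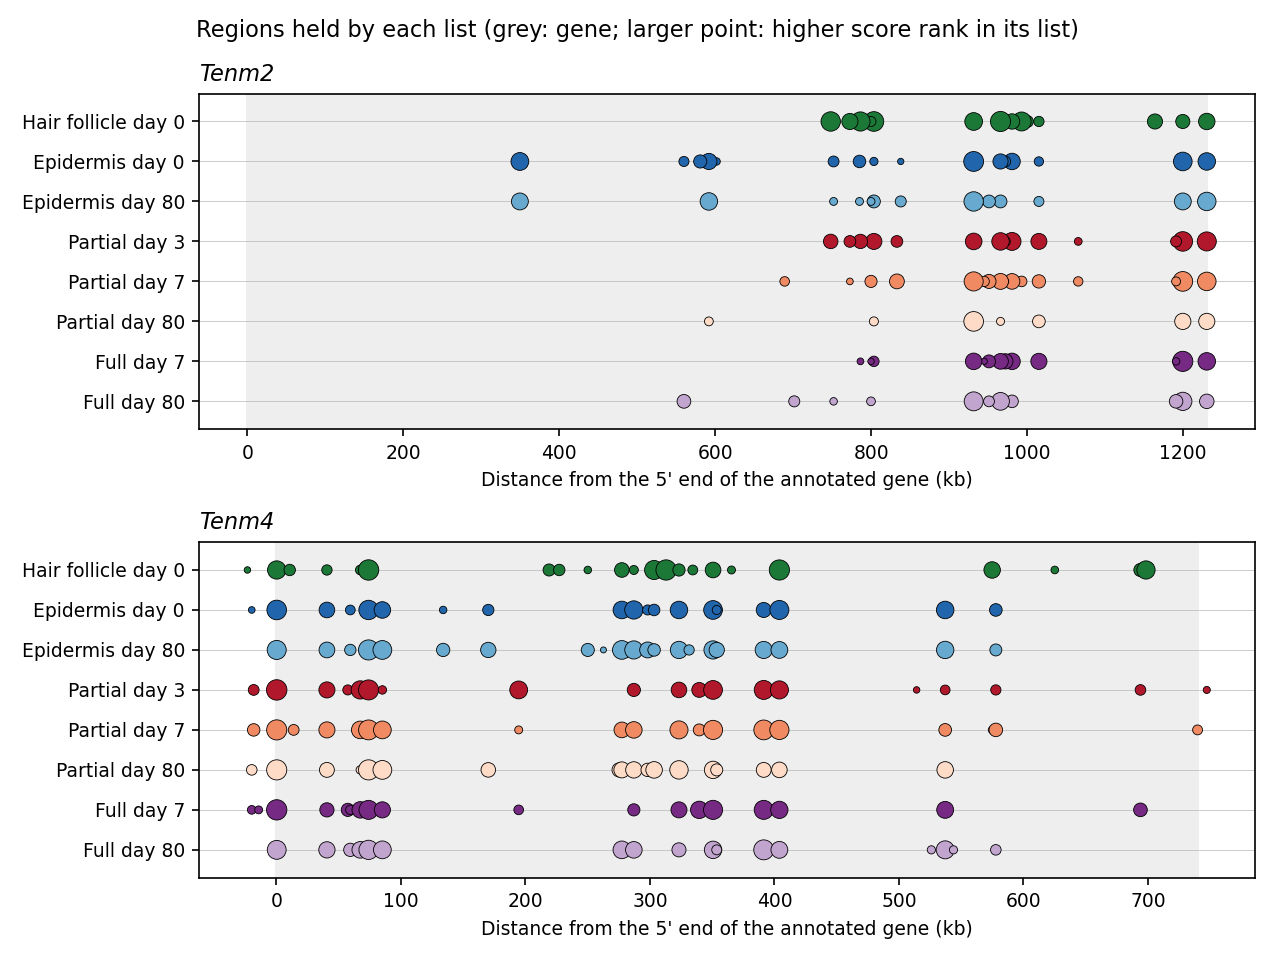
Positions of accessible regions along Tenm2 and Tenm4, with distance from the 5′ end of the annotated gene (kb) on the horizontal axis and 1 row per peak list; each mark is a region held by that list and the grey band is the gene. In Tenm2 the marks of the follicle list begin at 60.8% of the span while those of the day 0 epidermis list begin at 28.4%, and in Tenm4 both lists have marks in the first and in the last 50% of the gene.

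Tenm4, at chr7:96171244-96911093 on the plus strand, had the most even counts, with 23, 19, 23, 19, 19, 18, 18 and 18 regions in the standing order. It had 14 hair follicle side and 10 epidermal side regions, and 7 regions in all 8 lists. The strongest hair follicle region absent from both epidermis lists was chr7:96483761-96484833, with a score of 1485 in the follicle list (percentile 96.5) and no peak elsewhere. The nearest region on its 5′ side, chr7:96474521-96475290, had a score of 836 in the follicle list, 173 and 110 in the epidermis lists and 543 at day 80 of the partial-thickness wound. Tenm4 also had the 1 region of the 155 that was in the follicle list and every partial-thickness list but in neither epidermis list. This region, chr7:96238188-96238936, had scores of 195 in the follicle list, 1057, 1041 and 215 at days 3, 7 and 80 of the partial-thickness wound, and 686 and 199 at days 7 and 80 of the full-thickness wound.

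The Flrt genes, ligands of latrophilins and Unc5 receptors, had no hair follicle side region, and neither did Adgrl1 or Tenm1. Flrt1, at chr19:7087464-7166183 within the span of Macrod1, had 1, 2, 2, 3, 4, 4, 4 and 2 regions in the standing order. Flrt2, at chr12:95692006-95785215, had 3, 6, 5, 5, 4, 3, 5 and 5. Flrt3, at chr2:140658198-140671476 within the span of Macrod2, had 1, 2, 1, 1, 2, 1, 1 and 1. All 7 regions of Flrt1 and Flrt3 overlap both the Flrt gene and its host, so they were counted for both genes. The Flrt2 region chr12:95739067-95740552 was absent from the follicle list and in all 7 others, with scores of 816 and 298 in the day 0 and day 80 epidermis lists and 1159 at day 7 of the partial-thickness wound. The Flrt2 region 38867 bp before the gene, chr12:95652027-95653139, had the same presence, with scores of 291 and 102 in the epidermis lists and 1454, 1465 and 1292 in the early wound lists (days 3 and 7 partial-thickness, day 7 full-thickness).

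The wound lists show which hair follicle side regions were seen again in cells that the labels give as follicle progeny. Of the 58, the day 3 and the day 7 partial-thickness lists each held 15 (25.9%, interval 15.3 to 39.0), against 34.9% and 33.6% of all hair follicle side regions. The day 80 partial-thickness list held 1 (1.72%, interval 0.0436 to 9.24), against 18.9%. The day 80 epidermis list held 4 (6.90%, interval 1.91 to 16.7), against 16.9%. The full-thickness lists held 4 at day 7 (6.90%), against 23.4%, and 2 at day 80 (3.45%, interval 0.42 to 11.9), against 16.7%. The shares at days 3 and 7 after partial-thickness wounding had intervals that include the value for all regions, and the intervals in the other 4 lists lay below it. Without Tenm3 and Adgrl3, 28 regions were left. The day 80 epidermis list held 3 (10.7%, interval 2.27 to 28.2). The full-thickness lists held 4 at day 7 (14.3%, interval 4.03 to 32.7) and 2 at day 80 (7.14%, interval 0.877 to 23.5). These intervals include the values for all regions. The day 80 partial-thickness list held 1 (3.57%, interval 0.0904 to 18.3), below 18.9%. In the follicle list and in neither epidermis list were 54 regions (34.8% of the 155, against 14.3% of all regions). Of these, the day 80 partial-thickness and the day 80 full-thickness list each held 1 (1.85%, interval 0.0469 to 9.89). This interval includes the values for all such regions, 9.85% and 8.72%. The day 7 full-thickness list held 3 (5.56%, interval 1.16 to 15.4), against 16.2%.

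Most member regions lie inside a gene and away from its ends, so the same shares were taken over all regions inside a gene and over 1 kb from its ends. These background shares were 14.6% in the day 80 epidermis and 31.6%, 30.3% and 16.8% after partial-thickness wounding (days 3, 7 and 80). They were 19.9% and 13.9% after full-thickness wounding (days 7 and 80). The interval of the adhesion genes in the day 80 epidermis (1.91 to 16.7) includes the 14.6%. Their intervals in the day 80 partial-thickness list and both full-thickness lists lay below the background shares. Without Tenm3 and Adgrl3 the intervals of these lists (0.0904 to 18.3, 4.03 to 32.7 and 0.877 to 23.5) include the background shares. By gene, the day 3, day 7 and day 80 partial-thickness lists held 6, 5 and 0 of the 15 Adgrl3 regions, 3, 3 and 0 of the 15 Tenm3 regions, and 2, 2 and 1 of the 14 Tenm4 regions. They held 3, 3 and 0 of the 9 Tenm2 regions and 1, 2 and 0 of the 5 Adgrl2 regions. For Tenm3 and Adgrl3 together, the 3 lists held 9, 8 and 0 of 30, and the full-thickness lists held 0 at both days (interval 0.0% to 11.6% for each 0).

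**Figure D5:**
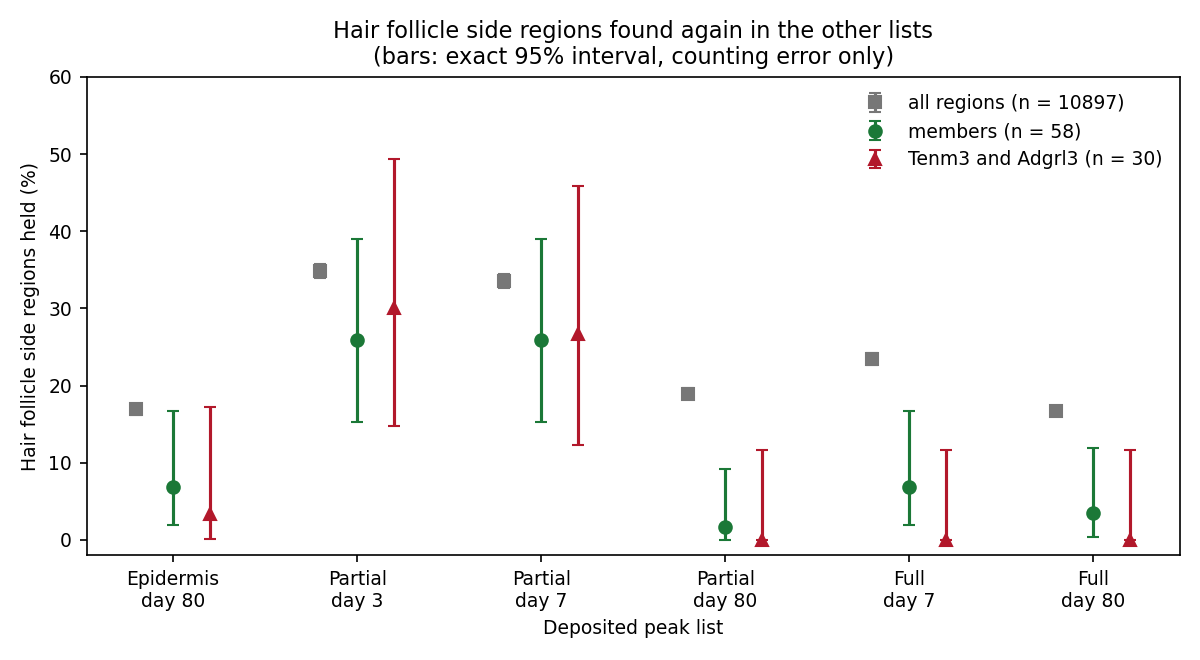
Percentage of hair follicle side regions (in the follicle list and not in the day 0 epidermis list) that each of the other 6 lists held, for the 10 adhesion genes (n = 58), for Tenm3 and Adgrl3 (n = 30) and for all regions (n = 10897); bars are exact 95% intervals that cover counting error only. The adhesion genes reach 25.9% at days 3 and 7 after partial-thickness wounding and 1.72% at day 80, where all regions reach 18.9%.

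Epidermal side regions of the same genes gave other shares. Of the 32, the day 80 epidermis list held 20 (62.5%), against 71.6% of all epidermal side regions. After partial-thickness wounding 12 (37.5%) were held at day 3, 12 (37.5%) at day 7 and 13 (40.6%, interval 23.7 to 59.4) at day 80, against 44.6%, 52.3% and 71.8%. After full-thickness wounding 14 (43.8%) were held at day 7 and 17 (53.1%) at day 80, against 52.6% and 70.7%. In each of these 6 lists both the hair follicle side and the epidermal side shares of the adhesion genes lay below those of all regions. On the epidermal side only the interval of the day 80 partial-thickness list lay below the value for all regions. The others include it: 43.7 to 78.9 (day 80 epidermis), 21.1 to 56.3 (days 3 and 7, partial-thickness), and 26.4 to 62.3 and 34.7 to 70.9 (days 7 and 80, full-thickness).

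Wound-gained regions, in at least 1 of the 3 early wound lists and in neither day 0 list, numbered 29 (18.7%), against 26.7% of all regions. They came from Tenm4 (9), Tenm2 (7), Adgrl2 (4), Flrt1 (3), Tenm3 (2), Adgrl3 (2), Adgrl1 (1) and Flrt2 (1). The day 3 and day 7 partial-thickness lists held 20 and 19 of the 29, and the day 7 full-thickness list held 14, against 60.7%, 47.3% and 70.9% of all wound-gained regions. Of the 29, 13 were in both the day 3 and the day 7 partial-thickness lists, against 33.6% of all wound-gained regions. All 3 early lists held 6, against 26.3%, and 3 were in the day 7 full-thickness list without either of the others, against 25.6%. Most were not listed later, and 23 were in no day 80 list, against 70.1% of all wound-gained regions. The day 80 epidermis list held 1 (3.45%), against 9.65%. The day 80 partial-thickness list held 2 (6.90%, interval 0.846 to 22.8), against 17.0%, and the day 80 full-thickness list held 4 (13.8%), against 19.2%.

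Of the 29 wound-gained regions, 5 were in a day 80 wound list and in no unwounded list, against 20.3% of all wound-gained regions. After partial-thickness wounding these were a pair in Flrt1. The first, chr19:7143269-7144950, had scores of 556, 523 and 382 at days 3, 7 and 80, and 812 at day 7 of the full-thickness wound. The second, chr19:7159267-7160250, had scores of 570, 430 and 244 at the same 3 days and no peak in the full-thickness lists. After full-thickness wounding they were a pair in Adgrl2 and 1 region in Tenm2. The Adgrl2 region chr3:148881081-148882181 had scores of 609 and 831 at days 3 and 7 of the partial-thickness wound and 645 and 126 at days 7 and 80 of the full-thickness wound. The Adgrl2 region chr3:148899899-148900553 had scores of 727 and 1216 at days 3 and 7 of the partial-thickness wound and 77 at day 80 of the full-thickness wound. The Tenm2 region chr11:36045595-36046914 had scores of 487 and 436 in the early partial-thickness lists and 319 and 126 in the full-thickness lists.

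Genes whose regions were distributed most like those of Tenm3 over the 8 lists were Hmcn1, Chst11, Adgrl3, Enox1 and App, among protein-coding genes with at least 15 regions. The measure was the mean absolute difference between the percentages of a gene's regions in each list, which ran from 5.62 percentage points (Hmcn1) to 10.5 (App) and was 9.3 for Adgrl3. Genes most like Adgrl3 were Gpc6 (8.41), Enox1 (9.0), Atp8a2 (9.11), Setbp1 (9.27) and Tenm3 (9.3). Tenm3 and Adgrl3 were thus among the 5 nearest genes of each other. Both were chosen for their many regions in the follicle list, and the measure uses that list. Their likeness is therefore a description and was not tested.

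Genes of the known binding partners were read from a list chosen with the same families in mind. Adgrl4, a further latrophilin relative of endothelium, had 0 regions. The Flrt partners Unc5a, Unc5b, Unc5c, Unc5d, Fgfr1 and Robo1 had 46 regions, 5 on the hair follicle side and 17 on the epidermal side. Robo1, a receptor of the Slit guidance proteins, gave 15 of those 17. In the standing order it had 2, 17, 16, 5, 12, 10, 11 and 17 regions, lowest in the follicle list. Unc5a had 0 regions.

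The latrophilin partners Nrxn2, Nrxn3, Cntn6, Shank1, Shank2 and Shank3 had 24 regions, 7 on the hair follicle side and 2 on the epidermal side. Neurexins are presynaptic adhesion proteins, and Shank proteins are scaffolds of the postsynaptic density. Shank2 had 13 of the 24, with 4 on the hair follicle side. Nrxn2 had 1, 0, 0, 5, 4, 1, 3 and 3 regions in the standing order, with the highest counts at days 3 and 7 of the partial-thickness wound. Cntn6 and Shank3 had 0. Gna12 and Gna13, G protein subunits that act below adhesion receptors, had 12 regions, 0 on the hair follicle side and 4 on the epidermal side, all 4 of Gna13.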

How the data were processed

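ATAC-seq peak lists of 8 groups (24 samples, 1 list per group) were analysed. Bowtie, Picard, MACS2 2.1.1.20160309, bedtools 2.29.2 and the mm10 build are named per the submitters' processing notes, with no role given. Each deposited peak has a score, which MACS2 derives from its −log10 q. The deposited fold enrichment is a ratio over the background of its own list. The deposited −log10 p of a peak likewise refers to its own list. All are the authors' values, and they served to describe or rank peaks of the same list, not to compare levels between lists. Whether samples were pooled before peak calling is not stated in these sources, and read depth is unknown.

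Peaks were merged into regions with Python 3.11.15, numpy 2.4.6 and pandas 2.3.3, and a list held a region if a peak overlapped it by at least 1 bp. Regions went to the nearest of 21896 protein-coding genes (RefSeq, GRCm38.p6) within 50 kb, and to every gene in a tie, which assigned 52773 regions (83.5%). The merging and assignment were tested on simulated data. The members, gene lists and classes were chosen with earlier results of these data known. Named regions were, for each member, the strongest hair follicle region absent from both epidermal lists, regions in the hair follicle list and every partial-thickness list but neither epidermal list, wound-gained regions in a day 80 wound list and no unwounded list, and regions in all 8 lists near a gene end. Other regions were chosen after their values were seen. Exact intervals came from scipy 1.17.1. Some genes of the marker and partner lists are not reported here and were left out of the counts of those lists. Exons, motifs in regions outside the promoter windows and protein sequences were not analysed here. The 9 alternatives changed the distance to the gene, the treatment of ties and nearer genes, the overlap, the peak width, the merging, the score threshold and the list length.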

Additional observations from a re-analysis of the deposited data

How the results depend on the processing

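Each group has 1 list, so no replicate could be left out. No paired analysis was possible because each group is represented by 1 peak list and replicate numbers do not appear in it. The 13 summary values were recomputed under 9 alternatives, and 104 of the 117 recomputed values moved by less than their counting interval or within 1.5 times. With only the upper 50% of each list by score, 70 regions were left (main 155), 25 on the hair follicle side, 15 on the epidermal side and 13 wound-gained; the share of hair follicle side regions held was 0.0% in the day 80 epidermal list, 12.0% at day 7 after partial-thickness wounding, and 0.0% in both full-thickness lists, and the day 80 partial-thickness list held 0.0% of wound-gained regions. When a list had to cover 50% of a region, the day 80 full-thickness list held 0.0% of hair follicle side and 0.0% of wound-gained regions. With lists of equal length, the day 80 partial-thickness list held 0.0% of hair follicle side regions. With ties given to the first gene, Flrt1 and Flrt3 had 0 regions and the day 80 partial-thickness list held 0.0% of wound-gained regions. The count in the hair follicle list minus that in the day 0 epidermal list was 5 to 15 for Tenm3 and 9 to 13 for Adgrl3 over the alternatives. For Tenm4 it was 4, with a range of -2 (upper 50% by score) to 7 (50% of a region covered). For Tenm2 it ran from -1 to 2.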

Other observations

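Of 17 regions within 50 kb of these genes that lay closer to another gene, 9 were in all 8 lists. The 2 regions within 50 kb of Adgrl1 that went to Asf1b and Prkaca were in all 8 lists, although Adgrl1 itself had its start region in 1 list alone. Both Nars2 regions beyond the 3′ end of Tenm4 were in all 8 lists as well. Near Tenm2, 2 of the 4 regions nearer to Wwc1 were in all 8 lists. Near Flrt1 this held for 3 of 6 and near Flrt3 for 0 of 3. Macrod2, the host of Flrt3, had 81 regions, with 33 held by the follicle list against 41 by that of day 0 epidermis, and Macrod1, the host of Flrt1, had 9. The nearest regions beyond 50 kb that belonged to no nearer gene were 1 of Tenm4 at 50387 bp, in all 8 lists, and 1 of Adgrl2 at 59185 bp, in 7 lists. The farthest region inside the limit was that of Flrt2 at 38867 bp.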
